A study of Callithrix jacchus with 20 samples.

Results

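Marmoset primordial germ cell-like cells (cjPGCLCs) from a 24 h pre-induction with Activin A (ActA) were compared on day 4 with cjPGCLCs from a pre-induction without it. They were chosen as the libraries of double-positive sorted cells with and without ActA, 2 of each, which makes 4 of the 20 RNA-seq libraries of the study. The study cultured induced pluripotent stem cells of the common marmoset (cjiPSCs, all from the line DPZ_cjiPSC#2), turned them for 24 h into precursors of mesendoderm (pre-ME), and then grew embryoid bodies in which cjPGCLCs arose. Poly(A) RNA was sequenced from cjiPSCs, pre-ME, cjPGCLCs and the double-negative somatic cells of day 4 embryoid bodies, in 10 conditions of 2 libraries each.

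The cjPGCLCs +ActA came from pre-ME treated with 100 ng/ml ActA and 3 uM CHIR, an inhibitor of GSK3 that switches on WNT signalling. The cjPGCLCs −ActA came from pre-ME treated with 3 uM CHIR alone. Both groups then received the same germ cell induction with BMP4, EGF, SCF and LIF, and no source used here gives ActA at that step. The labels name the parental medium cjPSCM in the treatment field and cjEPSCM in the titles. According to the paper cjPSCM contained TGFβ, and the lines had at times been kept with ActA and LIF while they were established. The sort is given as INTα6 and EpCAM in the titles and as CXCR4 and EpCAM in the sample fields, while the methods give INTα6 and CXCR4. All libraries came from 1 line. The labels call the 2 libraries of a group biological replicates without saying whether they were separate inductions. The p-values therefore measure a spread between libraries, pooled over the conditions of the study.

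Primordial germ cells are the embryonic founders of eggs and sperm, and in primates their specification rests on SOX17, TFAP2C and PRDM1. BMP signalling induces them from cells made competent by WNT and by Activin or Nodal signalling, which acts through SMAD2 and SMAD3 and is best known for inducing mesendoderm. Germ cells keep much of the pluripotency network and hold down the programmes of the neighbouring mesoderm, endoderm and amnion.

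Reads assigned to genes numbered 12734332 and 7504206 in the cjPGCLCs +ActA and 14216617 and 6708915 in the cjPGCLCs −ActA, against 4784964 to 22067099 over the 20 libraries, and replicate 1 of each cjPGCLC group was the deeper. Levels below are the counts the authors normalised to library depth, in the order replicate 1, replicate 2, and differences are log2 fold changes with ActA against without ActA, with their standard errors (SE). The adjusted p-values come from edgeR's quasi-likelihood test with Benjamini-Hochberg adjustment over 15797 genes. For each gene the spread behind the SE and p-value was estimated over the replicate pairs of all 10 conditions, not from the cjPGCLCs alone. Across genes, the SD of the log2 difference between replicates was 0.44 in the cjPGCLCs +ActA and 0.42 in the cjPGCLCs −ActA. Over the 10 conditions it ran from 0.28 to 0.88, the highest in cjiPSCs of cjPSCM. Since 2 libraries a group leave each call open to a single library, every call in cjPGCLCs was also tested with each of the 4 cjPGCLC libraries left out in turn, and losses are given beside the genes named. Pre-ME and somatic calls were followed in this way as counts.

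Levels of marker genes in the sorted cells were read before the comparison. The sort markers come first, and since the cells were sorted on such markers, their higher levels do not test the identity of the cells. CXCR4 had 1317 and 1275 normalised counts in the cjPGCLCs +ActA and 1183 and 1128 in the cjPGCLCs −ActA, against 49.5 to 76.1 in the somatic cells. The summed level of the 3 sort markers CXCR4, ITGA6 (which encodes INTα6) and EPCAM ranged from 2953 to 5249 in the cjPGCLCs and from 350 to 434 in the somatic cells. The 8 germ cell markers together stood at 3673 and 4092 with ActA and at 5107 and 5431 without, against 2297 to 3035 in the somatic cells, 5262 and 5403 in pre-ME +ActA, 3525 and 3696 in pre-ME −ActA and 7109 and 6086 in cjiPSCs. The cjPGCLC groups did not overlap, and those +ActA lay below their pre-ME. Most of the difference between the cjPGCLC groups lay in SOX17, which was not called, while POU5F1, NANOG and TFAP2C overlapped (values below). Of the 8 somatic (mesoderm and mesenchyme) markers, MIXL1, HOXB6 and FOXF1 were at or near 0, and their sum was 15456 and 11349 with ActA and 13646 and 10025 without, against 14059 to 18712 in the somatic cells. Endoderm markers (FOXA2, HNF4A, GATA4, with AFP and TTR near 0) summed to 2442 and 1241 with ActA and 4708 and 2550 without. The lowest library without ActA lay just above the highest with ActA. In the somatic cells these markers summed to 1303 and 698 with ActA and 2175 and 1815 without, also without overlap. In bulk libraries fewer cells of a type and less RNA per cell cannot be told apart, and the part of such cells in the results below was not tested.

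On day 4, 400 genes differed between the cjPGCLCs +ActA and −ActA at an adjusted p under 0.05, which is 2.53% of the genes tested. Of these, 217 (1.37%) were higher with ActA, by a median of 1.24, and 183 (1.16%) were lower, by a median of -1.07, beside a median of -0.01 over all genes tested. The libraries of the 2 groups did not overlap in any of the 400, nor in 50.5% of all genes tested. With the additional fold threshold of the study, an absolute log2 fold change over 2, 60 genes (0.38%) were called, 41 higher (0.26%) and 19 lower (0.12%). In pre-ME, at the end of the exposure itself, the same test called 3306 genes (20.9%). In the somatic cells sorted from the same type of embryoid bodies it called 4 (0.0253%), beside 617 genes there at an unadjusted p under 0.05. The somatic libraries had only 4784964 to 7171565 reads on genes, and their replicate SD was 0.45 with ActA and 0.50 without. The part of depth and spread in the small count was not tested. Of the 217 higher genes 165 had the same sign in the somatic cells (median 0.24), and of the 183 lower genes 120 (median -0.13). The number of calls in cjPGCLCs depended on the libraries. With 1 library left out, 93 (without replicate 1 +ActA), 251 (without replicate 2 +ActA), 84 (without replicate 1 −ActA) or 116 genes (without replicate 2 −ActA) were called, of which 85, 211, 82 and 109 were among the 400. Among the 400, 41 genes (25 higher and 16 lower) passed in all 4 of these fits and 136 passed in none.

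The genes with the largest increases after ActA included posterior HOXA genes, a neurotrophin receptor and a ligand of the TGF-β family. NGFR, the p75 receptor for neurotrophins, stood at 944 and 682 normalised counts with ActA and at 79.7 and 78.8 without, a log2 fold change of 3.36 (SE 0.31, adjusted p = 4.74e-05). The libraries without ActA were close to each other and far below those with it. MSTN (myostatin), a secreted ligand of the TGF-β family to which Activin belongs, had the largest difference among these, at 425 and 73.9 normalised counts against 6.08 and 3.15 (log2 fold change 5.62, SE 0.80, adjusted p = 0.00192). Its 2 libraries with ActA were themselves far apart. KANK4, a regulator of the actin cytoskeleton, was at 131 and 155 normalised counts with ActA and 9.11 and 9.46 without (log2 fold change 3.93, SE 0.48, adjusted p = 0.000448). ALX4, a homeobox factor of limb and craniofacial mesenchyme, was at 160 and 93.8 against 20.5 and 14.2 normalised counts (log2 fold change 2.82, SE 0.44).

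Also among the 12 largest increases were HOXA9, HOXA10 and HOXA11, described below, with HTR1D, a serotonin receptor, VWDE, ABI3BP, a matrix protein, and KLHL41, a sarcomere protein of muscle. Their log2 fold changes were 2.90 for HTR1D, 2.75 for VWDE and 2.82 for ABI3BP. KLHL41 was at the floor of 3 counts per library without ActA, and its level with ActA was at least 6.14-fold higher. MSTN, KANK4, HOXA9, NGFR, ALX4 and VWDE passed whichever cjPGCLC library was left out. The calls of HOXA10 and HTR1D were lost without replicate 1 −ActA (adjusted p = 0.0865 and 0.0717). That of ABI3BP was lost without replicate 1 +ActA (adjusted p = 0.0856) and without replicate 1 −ActA (0.137). KLHL41 passed only without replicate 2 +ActA (adjusted p = 0.0433 and up to 0.36 otherwise), and HOXA11 passed in none of these fits (adjusted p = 0.0845 to 0.314).

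The genes with the largest decreases after ActA included signalling and transport genes of epithelia and neurons. PLPPR4, a membrane protein related to lipid phosphatases, had 195 and 158 normalised counts with ActA and 1204 and 572 without (log2 fold change -2.34, SE 0.31, adjusted p = 0.00082). SLC17A7, a vesicular glutamate transporter, was at 12.7 and 8.53 normalised counts with ActA and at no less than 58.3 in either library without (log2 fold change -2.43, SE 0.41, adjusted p = 0.00385). These are the lower genes of the top 12 that passed whichever library was left out, and in both the groups were well apart. MAOB, which degrades monoamines, was at the floor of 3 counts in both libraries with ActA, against 94.9 and 48.9 normalised counts without, so that it was at least 21.1-fold lower. VTCN1, an immune checkpoint ligand used as an amnion marker, was at 80.3 and 132 normalised counts against 642 and 426 (log2 fold change -2.36, SE 0.47, adjusted p = 0.0126). IHH, the ligand Indian hedgehog, was at 264 and 112 normalised counts against 1069 and 567 (log2 fold change -2.11, SE 0.44, adjusted p = 0.0148), and the lower library without ActA was still above both with ActA.

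Among the same 12, the log2 fold changes were -3.10 for CLDN1 (a tight junction protein), -2.90 for PHOX2A (a homeobox factor of autonomic neurons), -2.79 for TSHR (the thyrotropin receptor), -2.59 for KCNK13 (a potassium channel), -2.54 for BICDL1 and -2.24 for ANKFN1. Most of these calls depended on 1 library. MAOB was lost without replicate 1 +ActA (adjusted p = 0.0638). VTCN1 (adjusted p = 0.203 and 0.159) and ANKFN1 (0.196 and 0.112) were lost without replicate 1 +ActA and without replicate 1 −ActA. TSHR (adjusted p = 0.0552 and 0.193) and IHH (0.149 and 0.307) were lost without replicate 2 +ActA and without replicate 1 −ActA. CLDN1 and KCNK13 passed only without replicate 2 −ActA, with adjusted p-values of up to 0.729 and 0.262 otherwise. PHOX2A passed only without replicate 2 +ActA (up to 0.333 otherwise), and BICDL1 only without replicate 1 +ActA (up to 0.218).

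**Figure D1:**
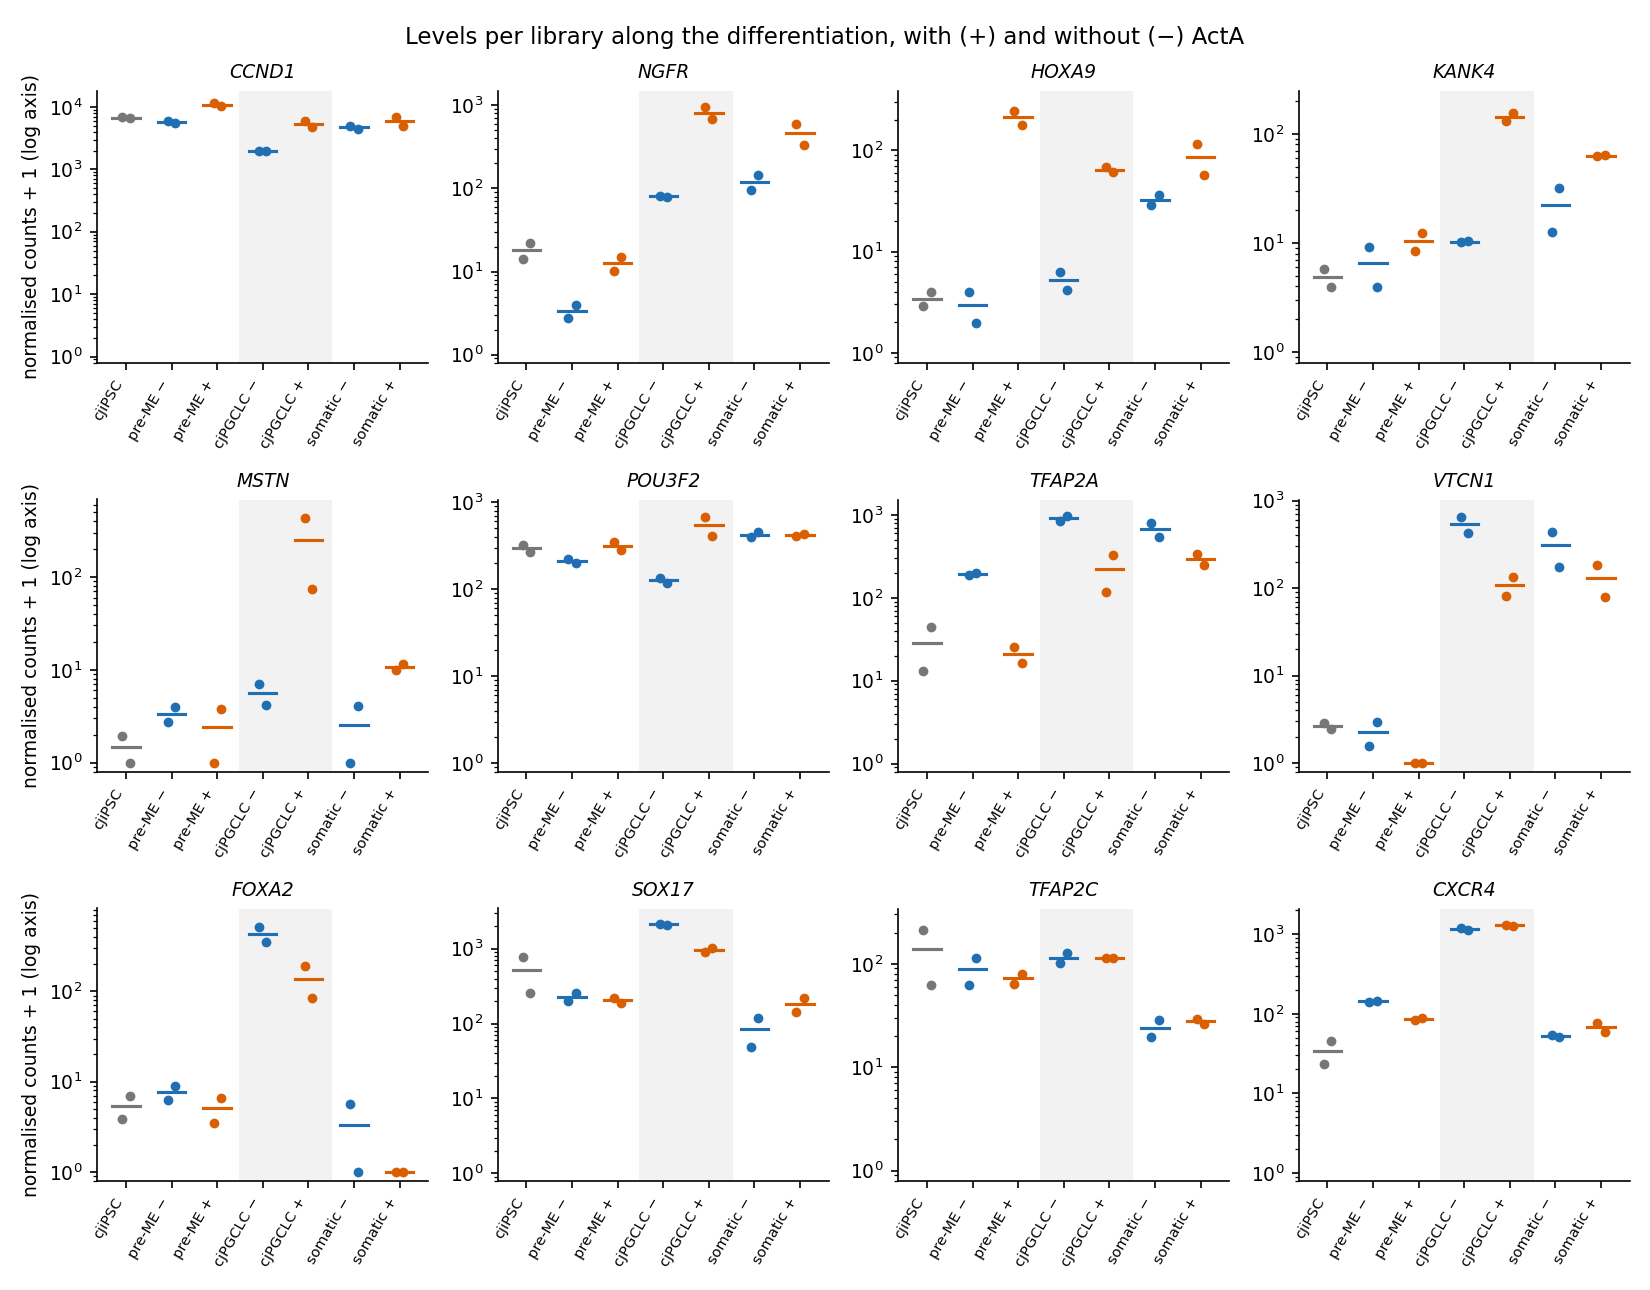
Normalised counts plus 1 (log axis) of 12 genes in cjiPSCs of cjPSCM, pre-ME, cjPGCLCs (shaded) and somatic cells, with (+, orange) and without (−, blue) ActA; dots are libraries and bars are means of 2. NGFR stands at 944 and 682 in the cjPGCLCs +ActA and at 79.7 and 78.8 in the cjPGCLCs −ActA, whereas TFAP2C (113 and 114 against 100 and 126) overlaps.

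To ask what of the initial response was left on day 4, the genes that ActA moved in pre-ME (both thresholds, 2.11% of the genes tested) were followed into the cjPGCLCs, which are other libraries. Of the 225 genes higher in pre-ME +ActA (1.42%), 22 were also higher in the cjPGCLCs +ActA (9.78%), beside 1.37% of all genes tested, and 1 was lower. Of the 109 lower in pre-ME +ActA (0.69%), 9 were also lower on day 4 (8.26%), beside 1.16% of all genes, and 3 were higher. The median log2 fold change of the 225 went from 2.72 in pre-ME to 0.50 in the cjPGCLCs, and that of the 109 from -2.62 to -0.11. These genes were chosen for an absolute log2 fold change over 2 in pre-ME, so the pre-ME medians were bound to lie beyond 2. How much of the fall came from that choice was not tested. On day 4, 164 of the 225 and 59 of the 109 had the sign they had in pre-ME. Leaving out 1 library at a time, those of pre-ME included, left 7 to 24 genes higher in both and 2 to 7 lower in both, the fewest higher without replicate 2 −ActA and the fewest lower without replicate 1 of either cjPGCLC group. Read from day 4, 86 of the 217 higher genes (39.6%) were also higher in pre-ME at an adjusted p under 0.05, where 11.4% of all genes were, and 36 of the 183 lower genes (19.7%) were also lower there, where 9.54% were.

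**Figure D2:**
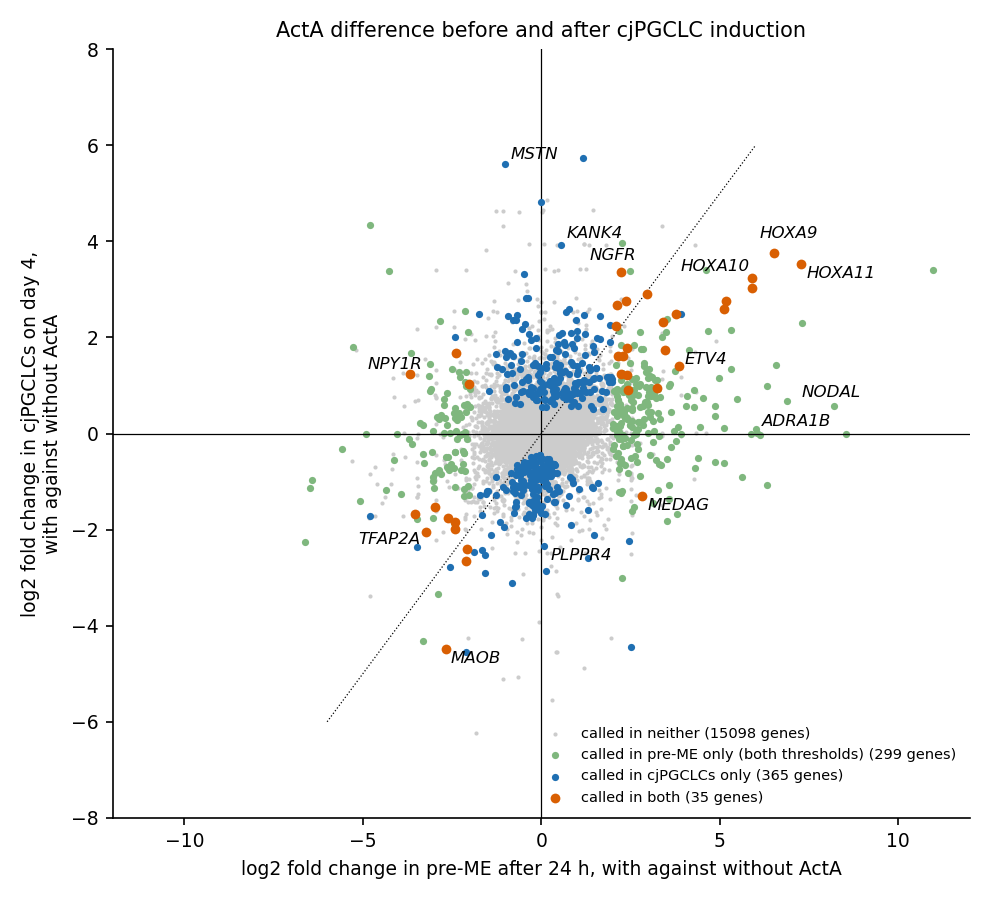
Log2 fold change with against without ActA in pre-ME after 24 h (x axis) and in cjPGCLCs on day 4 (y axis), one point per gene tested; colours mark genes called in pre-ME at both thresholds, in cjPGCLCs at an adjusted p under 0.05, in both or in neither, and the dotted line marks equal values. Of the 35 genes called in both, 31 lie in the same direction and 4 in opposite directions, and 299 genes called in pre-ME were not called in cjPGCLCs.

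NGFR and LOC118152023 were called higher with ActA in pre-ME, cjPGCLCs and somatic cells. NGFR had 11.6 ± 3.44 normalised counts (SD, n = 2) in pre-ME +ActA and was at the floor of 3 counts in both libraries of pre-ME −ActA, a difference of at least 4.90-fold (adjusted p = 0.0495). These levels were far below those in the cjPGCLCs +ActA. A change of the difference from pre-ME to day 4 was not called for NGFR (adjusted p = 0.553). LOC118152023, a coding gene without a symbol, was named after its values were seen. It had 140 and 96.7 normalised counts in the cjPGCLCs +ActA and 22.8 and 9.46 in the cjPGCLCs −ActA (log2 fold change 2.76, SE 0.39, adjusted p = 0.00115), and passed whichever cjPGCLC library was left out. In pre-ME its log2 fold change was 5.17, and in the somatic cells it was 3.79. No gene was called in the somatic cells without replicate 1 of the somatic cells −ActA, and 1 or 2 were called without another somatic library.

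Other genes higher at both stages, listed after the calls were made, were CD82, a membrane organiser of the tetraspanin family (2.67 in cjPGCLCs and 2.12 in pre-ME), LAMC3, a laminin chain (2.49 and 3.76), PGF, a VEGF family ligand (1.25 and 2.22), and ETV4, a transcription factor downstream of FGF signalling (1.40 and 3.86). HTR1D was also among them, at 2.95 in pre-ME. Those lower at both stages included MAOB and TFAP2A, with ADTRP (-1.84 in cjPGCLCs and -2.42 in pre-ME) and the heparan sulphate enzyme HS3ST1 (-1.53, and at least 6.23-fold lower in pre-ME). Among the 31 genes called in the same direction at both stages, 6 had a smaller difference on day 4 by the test of the difference itself, among them ETV4, FN1, SPRY4, CLIC6 and SERINC2. CD82 passed whichever cjPGCLC library was left out, and CLIC6 and SERINC2 in none of the 4 fits (adjusted p = 0.0634 to 0.17 and 0.106 to 0.223). LAMC3, PGF and ETV4 passed in 1 of the 4 fits (adjusted p up to 0.0865, 0.216 and 0.204), ADTRP in 2 (lost without replicate 2 +ActA and replicate 1 −ActA, adjusted p = 0.0678 and 0.115) and HS3ST1 in 3 (lost without replicate 1 −ActA, adjusted p = 0.102).

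The posterior genes of the HOXA cluster, which set positional identity along the body axis, kept a difference from pre-ME to day 4. HOXA9 had 66.8 and 59.7 normalised counts in the cjPGCLCs +ActA and 5.32 and 3.15 in the cjPGCLCs −ActA (log2 fold change 3.76, SE 0.44, adjusted p = 0.000383), after 243 and 178 against 2.95 and 0.991 in pre-ME (6.51, SE 0.43). HOXA10 had 52.4 and 45.5 against 5.32 and 4.73 normalised counts in the cjPGCLCs (log2 fold change 3.24, SE 0.54, adjusted p = 0.00385). Both genes were well separated on day 4, at low levels. HOXA11 had 27.9 and 19.9 normalised counts against 3.04 and 0 (log2 fold change 3.53, SE 0.89, adjusted p = 0.0482). HOXA13, at the end of the cluster, had 1067 and 663 normalised counts against 317 and 241 (log2 fold change 1.62, SE 0.30, adjusted p = 0.00787), and its levels on day 4 exceeded those in pre-ME (161 and 176 with ActA, 30.7 and 37.6 without). Anterior members did not pass. The log2 fold changes of HOXA2 and HOXA3 were -0.56 (SE 0.61) and 0.84 (SE 0.54). Over all HOX clusters, 4 of 20 genes tested were higher in the cjPGCLCs +ActA, beside 1.37% of all genes tested, and none was lower. The median log2 fold change of the 20 was 0.30. In the somatic cells no HOX gene was called, and HOXA9 was at 113 and 56.6 normalised counts with ActA and 27.7 and 35.6 without, both above the cjPGCLCs −ActA. Among the 4 called genes only HOXA9 passed whichever cjPGCLC library was left out. HOXA10 was lost without replicate 1 −ActA (adjusted p = 0.0865), HOXA13 passed only without replicate 2 +ActA (up to 0.148 otherwise) and HOXA11 was lost in all 4 fits (0.0845 to 0.314).

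**Figure D3:**
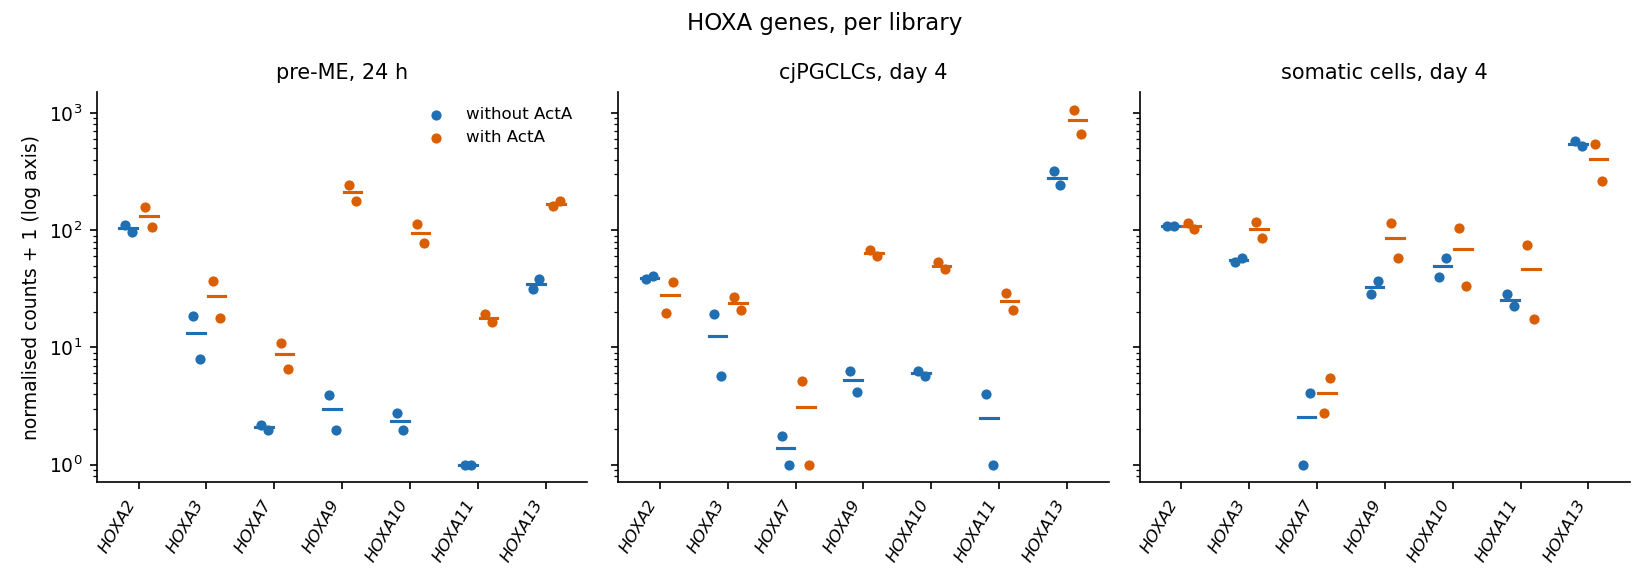
Normalised counts plus 1 (log axis) of 7 HOXA genes in pre-ME, cjPGCLCs and somatic cells, with (orange) and without (blue) ActA; dots are libraries and bars are means of 2. HOXA9 and HOXA10 are separated in pre-ME and cjPGCLCs (66.8 and 59.7 against 5.32 and 3.15 for HOXA9 in cjPGCLCs), and HOXA2, at 18.6 and 35.5 against 37.2 and 39.4, is not called in cjPGCLCs.

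Much of the initial response was no longer seen on day 4. NODAL, the ligand that signals through the same receptors as ActA, had 224 and 53.4 normalised counts in pre-ME +ActA and at most 0.991 in pre-ME −ActA, a difference of at least 58.4-fold, and was at the floor of 3 counts in all 4 cjPGCLC libraries. GSX2, a homeobox gene of the forebrain, differed in pre-ME by at least 17.0-fold in the same direction and had no read in any cjPGCLC library. ADRA1B, an adrenergic receptor, differed by 6.02 in pre-ME (SE 0.29), but in the cjPGCLCs it had 97.2 and 119 normalised counts with ActA and 96.4 and 104 without (log2 fold change 0.10, SE 0.26). CDX2, a caudal homeobox gene, was at 197 and 139 normalised counts in pre-ME +ActA and at 27.7 and 29.7 in pre-ME −ActA (2.54, SE 0.35), and at 3.38 and 14.2 against 25.8 and 20.5 in the cjPGCLCs (-1.62, SE 0.53, adjusted p = 0.133). Here the order of the groups was the other way round on day 4, and the change of the difference was called (-4.16, adjusted p = 0.00128). EOMES, a driver of mesendoderm, was higher in pre-ME +ActA (2.18, SE 0.57) and at 1.58 to 6.08 normalised counts in all 4 cjPGCLC libraries.

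Over all genes, 707 (4.48%) had an ActA difference in cjPGCLCs that differed from that in pre-ME by the interaction test. A total of 28 genes were called in opposite directions at the 2 stages. Of the 217 genes higher on day 4, 20 were lower in pre-ME, where 9.54% of all genes were lower. Of the 183 lower on day 4, 8 were higher in pre-ME, where 11.4% of all genes were higher. Neither count stood above the share over all genes. The genes below were named after their values were seen, except TBX3, GATA2, TGIF1 and VEGFA, which belong to the lists. EGFR, the receptor for the EGF of the induction medium, was lower in pre-ME +ActA (-0.85, SE 0.22) and had 368 and 330 normalised counts in the cjPGCLCs +ActA against 139 and 117 (log2 fold change 1.43, SE 0.19, adjusted p = 0.000878). ERRFI1, a feedback inhibitor of EGFR, was not called in pre-ME (-0.34) and had 586 and 493 normalised counts with ActA against 1638 and 1237 on day 4 (log2 fold change -1.42, SE 0.17, adjusted p = 0.000462). Both passed whichever cjPGCLC library was left out, and in both the groups were well apart. NPY1R, a receptor for neuropeptide Y, went from -3.68 in pre-ME to 1.24 on day 4, and MEDAG from 2.82 to -1.30. TBX3 (1.59 to -1.03), GATA2 (0.85 to -0.95), TGIF1 (0.37 to -0.64) and VEGFA (1.06 to -1.15) turned from higher to lower. MEDAG was lost in all 4 fits that left out a library (adjusted p = 0.0646 to 0.432), and NPY1R, TBX3, GATA2, TGIF1 and VEGFA passed in 1 of the 4 each, with adjusted p-values of up to 0.596, 0.391, 0.292, 0.228 and 0.281.

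A further 92 genes, 42 higher and 50 lower, were called in cjPGCLCs but not in pre-ME, with an interaction in that direction. POU3F2, a POU factor of neural progenitors, had 669 and 408 normalised counts in the cjPGCLCs +ActA and 134 and 117 in the cjPGCLCs −ActA (log2 fold change 2.09, SE 0.23, adjusted p = 0.000229). In pre-ME it differed by 0.57 (SE 0.22, adjusted p = 0.0756), and in the somatic cells by -0.01 (411 and 425 against 394 and 449 normalised counts). The cjPGCLCs −ActA were the lowest, below the pre-ME libraries (199 to 350) and the somatic cells. FGFR4, a receptor for FGF ligands, had 603 and 610 normalised counts in the cjPGCLCs +ActA and 1452 and 1232 without (log2 fold change -1.15, SE 0.12, adjusted p = 0.000214), with 0.22 in pre-ME and -0.02 in the somatic cells. KANK4, with 3.93 on day 4, differed by 0.54 (SE 0.62) in pre-ME, and PLPPR4, with -2.34, by 0.07 (SE 0.29). PARP14, an ADP-ribosyltransferase, and DTX3L, a ubiquitin ligase, were chosen after their values were seen. PARP14 had 298 and 316 normalised counts with ActA and 845 and 820 without (log2 fold change -1.44, SE 0.15, adjusted p = 0.000214), and DTX3L had 603 and 570 against 1542 and 1447 (-1.35, SE 0.19, adjusted p = 0.00129). All 6 of these genes passed whichever cjPGCLC library was left out.

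The germ cell genes that were called were lower with ActA. Of 20 PGC specifiers tested, 3 were lower and none higher, beside 1.16% lower and 1.37% higher over all genes tested. A positive log2 fold change was seen in 4, and the median was -0.35, beside -0.01 over all genes. TFAP2A, an AP-2 factor of early germ cell and amnion progenitors, had 116 and 330 normalised counts with ActA and 854 and 958 without (log2 fold change -2.06, SE 0.37, adjusted p = 0.00652), after -3.24 in pre-ME. The first replicate with ActA was much lower than the second. GATA2 had 2622 and 3454 normalised counts with ActA and 5937 and 5798 without (-0.95, SE 0.21), and TBX3 had 306 and 229 against 644 and 449 (-1.03, SE 0.24). SOX17 was at 913 and 1034 against 2152 and 2096 normalised counts, groups that did not overlap, but with a log2 fold change of -1.13 and SE of 0.42 it did not pass (adjusted p = 0.212). TFAP2C was level, at 113 and 114 against 100 and 126 (0.01, SE 0.43). PRDM1 was at 221 and 196 against 288 and 279 normalised counts (-0.44, SE 0.23), and NANOS3, an RNA-binding protein of germ cells, at 42.3 and 14.2 against 61.5 and 44.1 (-0.86, SE 0.50), neither of which passed. TFAP2A was lost without replicate 1 +ActA (adjusted p = 0.0864) and without replicate 2 −ActA (0.0535). GATA2 passed only without replicate 2 +ActA (adjusted p up to 0.292 otherwise), and TBX3 only without replicate 2 −ActA (up to 0.391).

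Of 15 core pluripotency genes tested, 2 were lower with ActA and none higher (median -0.11), beside 1.16% lower and 1.37% higher over all genes. These were ZFP42, at 113 and 105 normalised counts against 203 and 200 (-0.88, SE 0.20, adjusted p = 0.0258), and SALL4, at 882 and 1442 against 1664 and 2276 (-0.77, SE 0.19, adjusted p = 0.0393). POU5F1 was at 1380 and 1490 normalised counts with ActA and 1381 and 1458 without (0.01, SE 0.17), and NANOG at 136 and 297 against 146 and 238 (0.17, SE 0.29). Both overlapped between the groups, whereas in pre-ME they were higher with ActA, by 0.83 and 0.76. None of the 3 sort markers was called: the log2 fold change was 0.16 for CXCR4, 0.11 for ITGA6 and -1.05 for EPCAM, which had 1204 and 472 normalised counts with ActA and 2237 and 1234 without (SE 0.33, adjusted p = 0.121). No gene of 8 for DNA methylation or of 7 for later germ cell development was called. ZFP42 was lost in all 4 fits with a library left out (adjusted p = 0.113 to 0.182), and SALL4 passed only without replicate 2 +ActA (up to 0.471 otherwise). Without replicate 1 +ActA, 1 sort marker was called, as lower.

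The amnion-like and endodermal genes that were called were lower with ActA. Of 20 amnion-like and surface ectoderm genes tested, 4 were lower and none higher (median -0.32), beside 1.16% lower and 1.37% higher over all genes. The 4 were VTCN1 and, shared with the specifier list, TFAP2A, GATA2 and TBX3, while 8 of the 20 had a positive log2 fold change. The summed level of the list overlapped between the groups, at 26692 and 24623 with ActA and 29969 and 25479 without, as did that of the 4 amnion-like markers (1848 and 1965 against 2218 and 1950). ISL1, an amnion and mesoderm factor, was at 1512 and 1608 normalised counts against 1345 and 1329 (0.22, SE 0.17) and was not called. Of 13 endoderm genes tested, 2 were lower and none higher, with a median of -0.83. FOXA2, a pioneer factor of endoderm, had 192 and 83.9 against 518 and 356 (-1.65, SE 0.38, adjusted p = 0.0295). The groups were clearly apart, and in the somatic cells FOXA2 was near 0. The summed level of the endoderm list was lower with ActA in the somatic cells too, at 4274 and 3391 against 5701 and 5203. FOXA2 passed only without replicate 1 +ActA (up to 0.348 otherwise).

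The cell adhesion genes that were called went both ways, while most of the list ran lower with ActA. Of 21 cadherin and junction genes tested, 2 were higher and 4 lower, beside 1.37% higher and 1.16% lower over all genes. A positive log2 fold change was seen in 5 of the 21, and the median was -0.79. CDH6, a cadherin of mesenchyme and kidney progenitors, had 3045 and 3068 normalised counts with ActA and 1100 and 1417 without (1.28, SE 0.18, adjusted p = 0.00114), and CDH11, the cadherin of mesenchymal cells, 11869 and 9535 against 5562 and 5579 (0.94, SE 0.17). The desmosome genes PKP2 (-1.12, SE 0.25) and DSG2 (-1.07, SE 0.23), CLDN1 and CDH2, N-cadherin (-0.79, SE 0.17), were lower. CDH1, E-cadherin, was at no more than 7.11 normalised counts in any of the 4 libraries. CDH6 passed whichever library was left out. CDH11 passed only without replicate 2 +ActA and DSG2 only without replicate 2 −ActA (adjusted p up to 0.123 and 0.211 otherwise), and PKP2 and CDH2 in none of the 4 fits (up to 0.17 and 0.175).

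Genes of mesenchyme and extracellular matrix ran higher with ActA. Of 21 tested, 7 were higher and none lower, beside 1.37% higher and 1.16% lower over all genes. A positive log2 fold change was seen in 18, and the median was 0.98, beside -0.01 over all genes. FN1, fibronectin, had 114174 and 82760 normalised counts in the cjPGCLCs +ActA and 47484 and 36855 in the cjPGCLCs −ActA (1.22, SE 0.23, adjusted p = 0.00897). COL3A1, a fibrillar collagen, had 6119 and 2498 against 1234 and 651 (2.18, SE 0.46, adjusted p = 0.0177). The first replicate was the higher of each pair for both genes, and the groups did not overlap. COL5A2, another collagen chain, had 9009 and 7223 normalised counts against 3443 and 3245 (1.28, SE 0.16, adjusted p = 0.000587). The others were TGFBI, a matrix protein induced by TGF-β (1.62), COL1A2 (1.78), POSTN, periostin (1.48), and THY1, a surface protein of fibroblasts and of pluripotent cells (1.07). COL1A1 did not pass (2.13, SE 0.65, adjusted p = 0.105), and its libraries with ActA, at 1632 and 2318 normalised counts, were above those without, at 460 and 438.

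The matrix genes are also expressed by the somatic cells and by cjiPSCs. The summed level of the list was 238412 and 188871 with ActA and 127168 and 105459 without, against 176146 to 245061 in the somatic cells of both treatments and 223747 and 154730 in cjiPSCs. FN1 stood at 71370 to 110395 normalised counts in the somatic cells, with a log2 fold change of -0.13 (SE 0.23) there. None of the list was called in the somatic cells. Whether somatic cells in the sorted fraction had a part in this was not tested. Of the 3 sort markers, CXCR4 and ITGA6 differed by 0.16 and 0.11 between the cjPGCLC groups, and EPCAM by -1.05 (1204 and 472 normalised counts with ActA against 2237 and 1234). COL5A2 passed whichever library was left out, and TGFBI was lost without replicate 2 −ActA (adjusted p = 0.0708). FN1 and POSTN were lost without replicate 1 +ActA (0.147 and 0.17) and without replicate 2 −ActA (0.121 and 0.155), COL3A1 and COL1A2 passed only without replicate 2 +ActA (up to 0.292 and 0.338 otherwise), and THY1 in no fit (0.104 to 0.184).

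**Figure D4:**
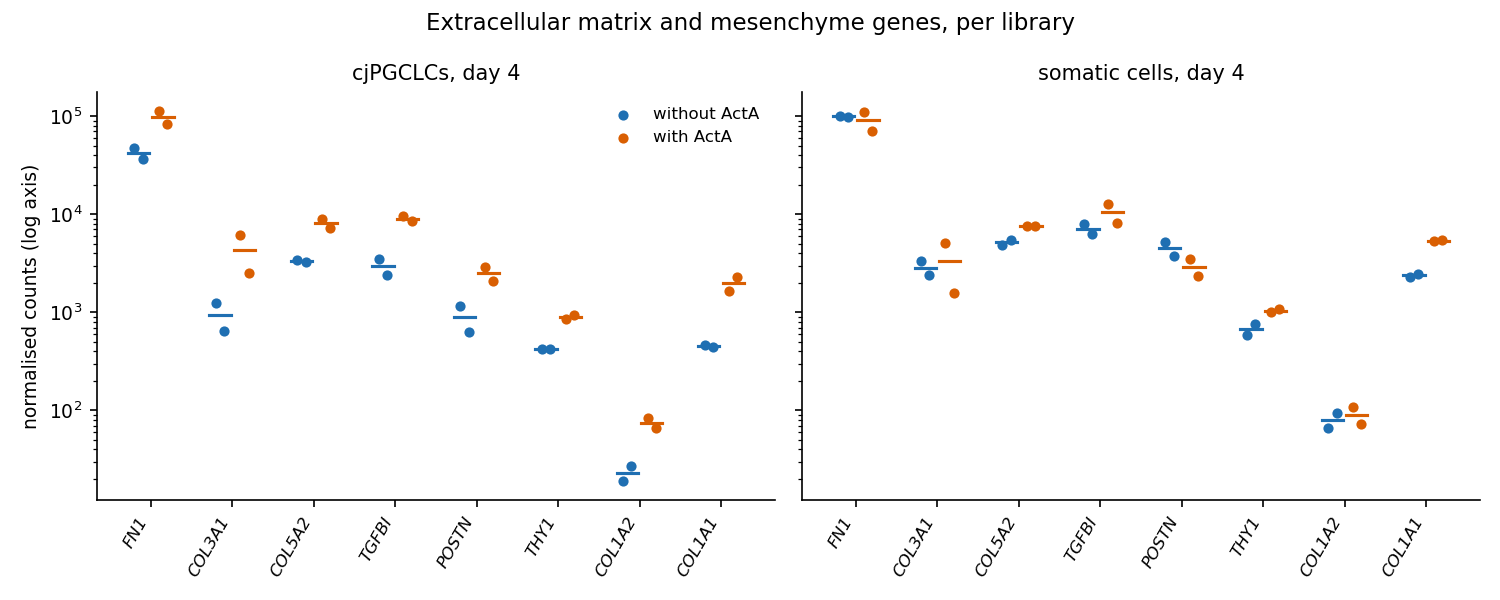
Normalised counts (log axis) of 8 matrix genes in cjPGCLCs and somatic cells on day 4, with (orange) and without (blue) ActA; dots are libraries and bars are means of 2, and COL1A1 was not called. In cjPGCLCs FN1 stands at 114174 and 82760 with ActA and at 47484 and 36855 without, and in somatic cells its groups overlap (110395 and 71370 against 101191 and 98126).

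Signalling genes on day 4 were read by pathway. Of 21 genes of the Activin pathway tested, 1 was higher and 1 lower, beside 1.37% higher and 1.16% lower over all genes. The lower gene was TGIF1, a repressor of SMAD signalling, at 896 and 1128 normalised counts with ActA against 1574 and 1571 (-0.64, SE 0.13, adjusted p = 0.0111), and the median was 0.22. Of 19 WNT feedback targets, 2 were higher and 3 lower (median -0.54). CCND1, the cyclin that drives cells from G1 into S phase, had 5870 and 4762 normalised counts with ActA and 1959 and 1964 without (1.43, SE 0.23, adjusted p = 0.00314), and ZNRF3, an enzyme that removes WNT receptors, had 378 and 404 against 920 and 832 (-1.17, SE 0.15, adjusted p = 0.00082). Neither overlapped, and both passed whichever library was left out. SFRP2, a secreted WNT modulator, was at 1.10, LGR5, a receptor for R-spondins, at -1.58 and SP5, a WNT target, at -1.19. TGIF1 and SFRP2 passed in 1 of the 4 fits with a library left out (adjusted p up to 0.228 and 0.383 otherwise), and LGR5 and SP5 in none (up to 0.442 and 0.493). None of 14 WNT ligands was called (median 0.48).

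FGF and ERK feedback genes split evenly, with 3 higher, 3 lower and a median of 0.03 over 20 tested. Over all genes, 1.37% were higher and 1.16% lower. ETV4 (1.40), SPRY1 (1.02) and SPRY4 (0.95), feedback targets of FGF signalling, were higher, and FGF2 (-1.75), FGFR4 (-1.15) and DUSP5, an ERK phosphatase (-1.11), were lower. SPRY4 had 437 and 424 normalised counts in the cjPGCLCs +ActA against 202 and 247 on day 4, and 1116 and 886 against 132 and 72.3 in pre-ME, so its difference fell from 3.24 to 0.95. Of 20 BMP response genes, CHRD, an antagonist of BMP ligands, was lower, at 392 and 374 normalised counts against 1046 and 627 (-1.14, SE 0.25), and none was higher (median 0.07). STRA6, which takes up retinol (1.39, 1 of 13 retinoic acid genes), and JAG1, a NOTCH ligand (0.84, 1 of 19), were higher. FGFR4 passed whichever library was left out. ETV4, SPRY1, FGF2 and CHRD passed in 1 of the 4 fits (adjusted p up to 0.204, 0.17, 0.278 and 0.455), and SPRY4, DUSP5, STRA6 and JAG1 in none (up to 0.297, 0.333, 0.297 and 0.329).

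In the remaining lists the calls were single genes or none, beside 2.53% of all genes called in either direction. Neural genes had 1 call of 13, POU3F2 (median 0.42), and imprinted genes 1 of 18, MEST (0.86, SE 0.21), which was lost without replicates 1 of both groups and without replicate 2 −ActA (adjusted p = 0.354, 0.115 and 0.284). Of 24 genes of glycolysis and hypoxia, VEGFA was lower, and of 25 cell cycle genes, CCND1 was higher. None was called of 26 primitive streak and mesoderm genes (median -0.13), 13 endothelial and blood genes (0.71), 3 CDX genes (-1.27), 19 stress genes (-0.07), 13 p53 targets (0.15) or 23 genes of cholesterol synthesis (0.02). Over all genes, 2117 had an unadjusted p under 0.05.

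**Figure D5:**
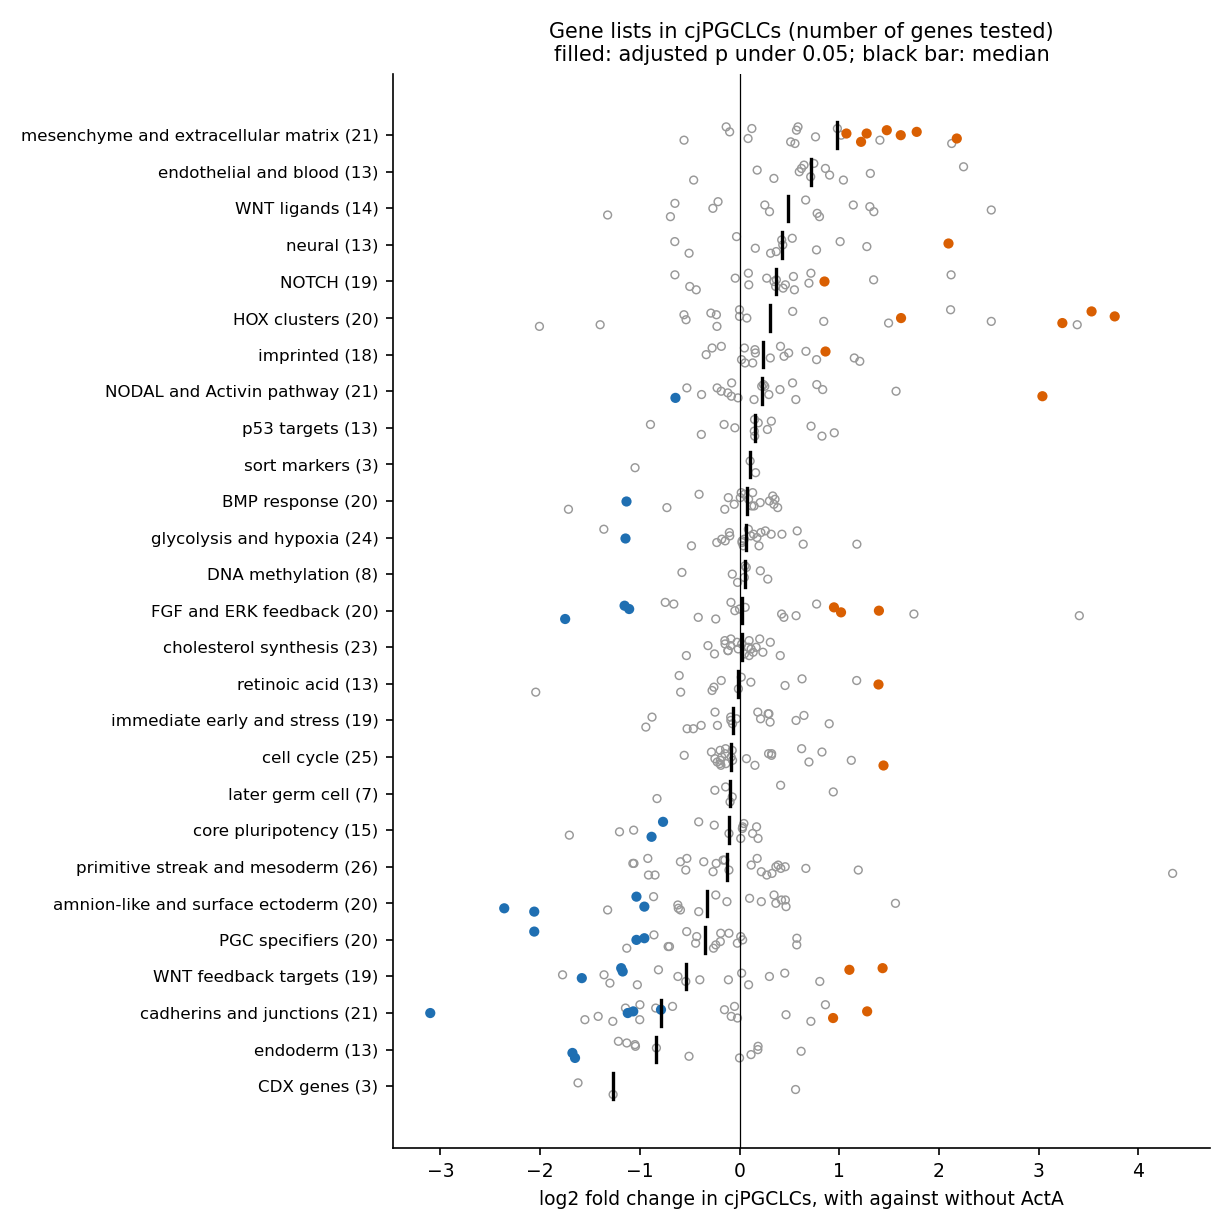
Log2 fold changes in cjPGCLCs, with against without ActA, of the genes tested in 27 lists ordered by median (black bar), with the number tested in brackets; filled points passed at an adjusted p under 0.05, orange higher and blue lower. The matrix list has the highest median (0.98) with 7 calls, and the CDX (-1.27), endoderm (-0.83) and junction (-0.79) lists have the lowest.

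Few genes were called between the somatic cells of the 2 protocols, and their number depended on the fit, with 28 by DESeq2, 139 with the 4 somatic libraries alone, 122 without a filter on low counts and 0 to 2 with a somatic library left out. Of the 4 genes called, 3 were higher with ActA (0.019% of the genes tested), among them LOC118152023 (3.79) and NGFR (1.92), and 1 was lower (0.00633%), SEMA3C, a secreted guidance cue (-1.42). The 3 higher genes were also called higher in the cjPGCLCs, where SEMA3C was at 2162 and 1605 against 1879 and 1735 normalised counts (0.06). NGFR had 591 and 334 normalised counts in the somatic cells +ActA and 94.6 and 145 without. The interaction test found 10 genes (0.0633%, beside 987 at an unadjusted p under 0.05) whose ActA difference was not the same in cjPGCLCs and somatic cells. Besides POU3F2 and FGFR4 these included PARP14 (-1.44 in cjPGCLCs and 0.01 in somatic cells), JADE2 (-1.08 and 0.79), PID1 (2.07 and -0.65) and PDLIM3 (1.64 and -0.81), of which the last 4 were named after their values were seen. This count ranged from 1 to 27 with a library left out, being 27 without replicate 2 of the cjPGCLCs +ActA, 2 without replicate 2 of the cjPGCLCs −ActA, and 1 without replicate 1 of either cjPGCLC group, replicate 2 of the somatic cells +ActA or either library of the somatic cells −ActA. In the cjPGCLC comparison itself, PID1 was lost without replicate 1 +ActA and replicate 2 −ActA (adjusted p = 0.0634 and 0.0584) and PDLIM3 without replicate 1 of either group (0.0743 and 0.0839).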

How the data were processed

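Paired-end poly(A) reads were, per the labels and the methods, checked with FastQC 0.11.8, mapped by the authors to the marmoset assembly calJac4 with STAR 2.7.0a and assigned to genes with HTSeq 0.11. The annotation release and the strand setting of the counting are not given in the sources used here, so reads of genes with an antisense or overlapping partner, such as those of the HOXA cluster, cannot be told apart. The authors deposited raw counts for 25102 genes in 20 libraries and a normalised signal, the counts divided by DESeq2 size factors. The first was tested and the second is printed as levels. The 2 HTSeq summary lines stayed out of library sizes and tests; reads outside genes made up 19.72% to 23.18% of each cjPGCLC library.

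edgeR 4.0.16 (R 4.3.3) was fitted to the counts of all 20 libraries with 1 coefficient per condition (TMM scaling, filterByExpr, quasi-likelihood F-test, 10 residual degrees of freedom), which left 15797 genes, with Benjamini-Hochberg adjustment over all of them. Calls had an adjusted p under 0.05, or in addition an absolute log2 fold change over 2. Interaction contrasts compared the ActA difference between cell types. DESeq2 1.42.0, its size factors, other filters, the 4 libraries of a comparison alone, a replicate block and leaving out each library were alternatives. On simulated counts for this comparison, 176 of 200 genes that carried a 1 log2 unit difference were recovered, with 10 false calls among 15904 genes. The simulation gave all genes and conditions the same dispersion and changed only genes above a count limit. These numbers therefore do not carry over to genes with low counts or a wider spread between replicates. A group with no more than 3 counts in either library was taken at that floor, 3 counts per library, and such bounds cover counting error only.

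The members, lists and tests were chosen with earlier results of these data known. Genes named outside the lists were, in each direction, those 12 with symbols that changed most (adjusted p under 0.05, groups that do not overlap, a mean of at least 20 normalised counts in the higher group), and the 6 each way in pre-ME; others are marked as chosen after their values were seen. Some genes that the rule or the lists hold are not reported here. Sequences were not used here.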

Additional observations from a re-analysis of the deposited data

Results flagged for a closer look

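These results were picked out because the ActA difference in cjPGCLCs differed from that in another cell type by the interaction test itself. Against pre-ME this held for 707 genes, and against the somatic cells for 10. Among the genes named in the text, the difference was more positive in cjPGCLCs than in pre-ME, in log2 units, by 3.38 for KANK4, 3.20 for ABI3BP, 2.72 for COL3A1, 1.53 for POU3F2, 1.30 for CDH6 and 1.23 for MEST. It was more negative for KCNK13 (-3.91), IHH (-3.59), TBX3 (-2.62), ETV4 (-2.47), PLPPR4 (-2.41), SPRY4 (-2.29), VEGFA (-2.21), GATA2 (-1.80), SP5 (-1.69), DUSP5 (-1.56), FGFR4 (-1.37), FN1 (-1.18), ZNRF3 (-1.07) and TGIF1 (-1.01). For ETV4, SPRY4 and FN1 these values describe a smaller increase on day 4, and for TBX3, VEGFA, GATA2 and TGIF1 a change of direction. Against the somatic cells the difference was 2.11 for POU3F2 and -1.13 for FGFR4.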

How the results depend on the processing

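With 2 libraries a group, the counts of calls depended on the fit, and the cause was not tested. The 217 higher and 183 lower genes became 337 and 288 with DESeq2, 587 and 436 with the 4 cjPGCLC libraries alone, 576 and 439 with no filter on low counts, and 41 to 180 and 29 to 75 with 1 library left out. At both thresholds the 41 higher genes ranged from 13 to 58 with a library left out, and the 19 lower genes from 4 to 19, with 12 by DESeq2 and 29 without a filter. Of the 400 genes, 379, 377 and 389 were called in the same direction by DESeq2, with the 4 libraries alone and without a filter. In pre-ME the 225 higher genes ranged from 139 to 215 and the 109 lower from 43 to 89. The 4 genes of the somatic cells became 28 by DESeq2, 139 with their own libraries alone, 122 without a filter and 0 to 2 with a library left out. The 707 genes whose difference changed from pre-ME became 1068, 2510, 1509 and 188 to 544, and the 10 against somatic cells 93, 125, 269 and 1 to 27, in the same order. The 22 genes higher at both stages became 34, 38, 49 and 7 to 24. The 9 lower at both became 19 without a filter and 2 to 7 with a library left out, and the 4 opposite ones 11 with the libraries of each comparison alone, 18 without a filter and 0 to 3. With a replicate block there were 440 calls (385 of the 400), 44 higher and 21 lower at both thresholds, and 25 interactions with the somatic cells; deviations of the same-numbered cjPGCLC libraries correlated across genes at 0.26, but the labels share only a number. Of 62 called genes followed by name, none changed sign and 56 kept the call in the 6 alternatives of tool, scaling, filter and block; CLDN1, SALL4 and SFRP2 lost it with the 4 libraries alone, IHH and 1 further gene with DESeq2 and SP5 with the block.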

Other observations

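A few further genes passed at an adjusted p under 0.05 in cjPGCLCs whichever library was left out; they belong to no list and were chosen after their values were seen. TRIM25, a ubiquitin ligase, had 1501 and 1463 normalised counts with ActA and 2801 and 2489 without (log2 fold change -0.84, SE 0.11, adjusted p = 0.00082). FZD8, a WNT receptor, had 414 and 431 normalised counts with ActA against 810 and 723 (-0.87, SE 0.13, adjusted p = 0.0022), and the lower groups did not overlap. TRIB2, a pseudokinase, had 1240 and 1183 against 716 and 747 (0.73, SE 0.11, adjusted p = 0.00234) and differed by 0.81 in pre-ME. WDFY2, an endosomal protein, had 953 and 1120 against 1791 and 2014 (-0.88, SE 0.12, adjusted p = 0.00114).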
